A study of Mus musculus with 5 samples.

Results

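The matrix metalloproteinases Mmp2, Mmp3, Mmp10, Mmp12, Mmp13, Mmp14 and Mmp19 and their inhibitors Timp1, Timp2 and Timp3 were followed through 5 Affymetrix whole-genome mouse arrays. The 10 genes were taken by symbol from the platform's probe annotation with all of their probe sets, which gave 22 of the 45101 probe sets. Of the arrays, 3 carry the label of kinase-dead IKKα knock-in mice (IKKαK44A/K44A, here KA/KA) and 2 that of wild-type littermates (WT). IKKα is a kinase of the NF-κB pathway. All mice were on the FVB background and 4 weeks old, and received no treatment. By the labels, RNA came in each case from bone marrow cells that had been freed of red cells and enriched for B220, a surface form of CD45 on developing B cells, with magnetic beads. How many animals went into each array is not given in the labels, so p-values measure the spread between these arrays. Their number limits the precision.

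Matrix metalloproteinases (MMPs) are zinc enzymes that cut proteins of the extracellular matrix. They are made as inactive precursors, and most are secreted, while Mmp14 is anchored in the membrane. Tissue inhibitors of metalloproteinases (TIMPs) bind the active enzymes and block them. In lung and skin these genes are transcribed mainly by fibroblasts, macrophages and injured epithelium, and the transcription factor AP-1, built from Fos and Jun proteins, is a well-known activator of several of them.

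The arrays fell into 2 sets, each with both genotype labels. The sets were read from the 24 poly-A control probe sets, which detect bacterial transcripts added before labelling and carry no mouse RNA. On KA/KA 1 and WT 1, the high-spike pair, their median signal was 11897 and 7305. On KA/KA 2, KA/KA 3 and WT 2, the low-spike arrays, it was 136, 249 and 46.9. B-lineage markers, measured for 11 of 13 genes, went against the label on the low-spike arrays. There the median of these markers on the log2(signal + 16) scale was 6.07, 6.74 and 6.49. It was 12.56 and 12.79 on the high-spike pair. Rag1, which cuts DNA in V(D)J recombination, read 4.09, 4.09 and 4.10 on the low-spike arrays. Not every marker was low there, as 4, 5 and 5 of the 11 were at or above the array median. Among them, Ptprc read 12.62, 13.48 and 11.93 and Blnk 11.58, 10.40 and 8.95. Lung epithelial markers (11 of 12 measured) had medians of 13.42, 14.35 and 13.75 on the low-spike arrays and of 5.86 and 5.78 on the pair. A comparison of all KA/KA with all WT arrays therefore mixes these sets, and every result is given inside each set as well. Fewer cells of a type and less RNA per cell cannot be told apart in such samples.

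Of the members, 4 lie in a cluster of Mmp genes on chromosome 9, in the order Mmp13, Mmp12, Mmp1b, Mmp3, Mmp1a, Mmp10 and Mmp8, followed by Mmp27, Mmp20 and Mmp7. These 4 are shown by promoter sequence, because all of them read highest on the same array, KA/KA 2, and their promoters share a motif. Reading highest on KA/KA 2 was not particular to them, as 9 of the 10 genes did. Among those are Mmp14, Timp1 and Timp2, in which the motif was not found. The RefSeq promoter table (GRCm38.p6) holds 300-base windows for 8 of the 10 members, 9 windows in all. Mmp2 and Mmp19 are not among them. The letters searched were TGAGTCA and its reverse complement TGACTCA, the consensus of AP-1, so that both strands were covered. Each of the following stretches is written 5′ to 3′ and holds the 120 bases before the RefSeq transcript start on the plus strand, with the AP-1 letters in capitals.
Mmp13, chr9:7272394-7272513: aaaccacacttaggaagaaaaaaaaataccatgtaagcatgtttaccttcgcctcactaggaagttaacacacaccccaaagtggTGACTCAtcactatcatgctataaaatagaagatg
Mmp12, chr9:7347254-7347373: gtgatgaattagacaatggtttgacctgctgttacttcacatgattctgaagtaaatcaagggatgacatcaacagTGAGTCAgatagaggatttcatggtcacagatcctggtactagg
Mmp3, chr9:7445702-7445821: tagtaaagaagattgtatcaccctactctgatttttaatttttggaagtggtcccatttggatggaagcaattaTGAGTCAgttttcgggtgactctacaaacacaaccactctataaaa
Mmp10, chr9:7502222-7502341: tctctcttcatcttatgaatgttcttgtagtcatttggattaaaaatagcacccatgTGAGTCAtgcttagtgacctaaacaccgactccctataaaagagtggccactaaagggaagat
Timp1, the inhibitor with the largest difference between KA/KA 2 and WT 2, is shown beside them.
Timp1, chrX:20870046-20870165: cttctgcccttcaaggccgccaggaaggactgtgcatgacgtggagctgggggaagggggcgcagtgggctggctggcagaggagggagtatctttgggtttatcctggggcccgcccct

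The AP-1 letters stood 35 bases before the start in Mmp13, 44 in Mmp12, 46 in Mmp3 and 63 in Mmp10, counted to the first of the 7 letters. They were in 4 of the 8 members with a window (4 of 9 windows) and in 5.2% of the 32851 windows of the table. Of the pair of Mmp12 windows, the upstream one, for another transcript start, did not hold them. No match was found in the windows of Mmp14, Timp1, Timp2 and Timp3, which says only that these letters are not in those 300 bases. The letters TATAAA (or TTTATA, for the other strand) occurred in the same 4 windows and in 13.6% of all windows. In Mmp12 they began 5 bases after the table's start. The 250 bases before the start held 37.2% to 40.4% G and C in these 4 windows, 54.4% in Timp1, 55.2% in Mmp14, 65.6% in Timp3 and 68.0% in Timp2, against a median of 52.4% over the table. A match is a description of letters and not evidence of binding.

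**Figure D1:**
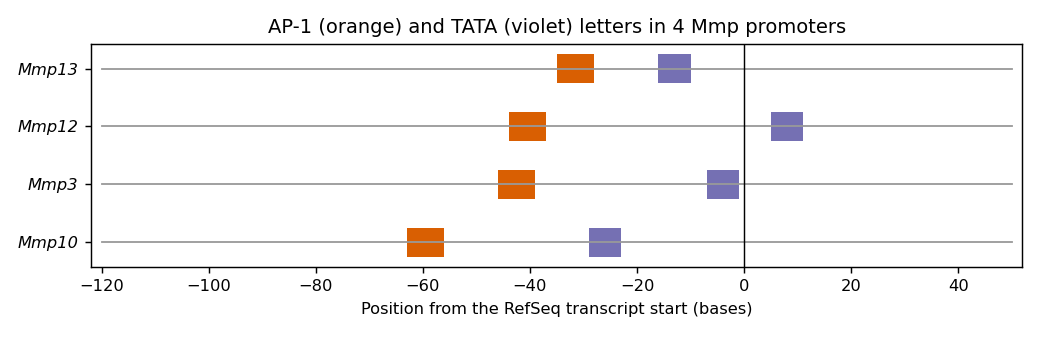
Positions of the AP-1 letters (orange) and TATA letters (violet) along 4 Mmp promoters, in bases from the RefSeq transcript start (vertical line at 0). In all 4 the AP-1 letters lie upstream of the TATA letters, from 35 bases (Mmp13) to 63 bases (Mmp10) before the start.

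All further levels are on the log2(signal + 16) scale, on which differences between dim signals look smaller than they are. The probe set with the highest mean stands for its gene, and differences are on the same scale. The medians of all probe sets lay between 6.80 and 7.17 on the 5 arrays, and values near or below them are called dim. Signals of different genes are not compared with each other, since probe sets differ in how brightly they bind.

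Mmp12, the elastase of macrophages, differed most between genotypes on the low-spike arrays. It read 14.53 on KA/KA 2, 10.75 on KA/KA 3 and 8.22 on WT 2, which on the linear scale are signals of 23623, 1704 and 282. Both KA/KA arrays lay above WT 2, KA/KA 2 by 83.9-fold and KA/KA 3 by 6.05-fold. On the high-spike pair the gene was dim, at 5.45 on KA/KA 1 and 6.30 on WT 1, a difference of -0.86. The mean difference on the low-spike arrays was 4.42 ± 1.64 (SE, n = 2 and 1), with an adjusted p of 0.886 in limma over all 45037 probe sets tested. That p and the SE rest on the distance between KA/KA 2 and KA/KA 3 and on a variance that limma borrows from all probe sets tested. The lone WT array is assumed to vary as the KA/KA arrays do. Every SE given here includes such a borrowed variance. Mmp12 was the only member that differed from WT 2 by 1 unit or more in the same direction on both KA/KA arrays, as did 2.96% of all probe sets upward.

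Mmp13, collagenase 3, the main collagenase of fibrillar collagen in mice, had another pattern. It read 12.06 on KA/KA 2 but 5.48 on KA/KA 3 and 6.62 on WT 2, and 9.95 and 9.46 on KA/KA 1 and WT 1. The high-spike pair and KA/KA 2 were thus clearly above the dim range, and the remaining low-spike arrays were below it. Arrays of the same label were far apart, and KA/KA 3 was 1.14 units below WT 2. Both of these were dim, so no fold in signal is given against them. The mean difference on the low-spike arrays was 2.15 ± 2.82 (SE, n = 2 and 1; limma adjusted p = 0.956). Without KA/KA 2 it is -1.14 and without KA/KA 3 it is 5.43, so its direction rests on which array is used. On the high-spike pair KA/KA 1 was 0.49 above WT 1.

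The stromelysins Mmp3 and Mmp10, which cut proteoglycans, fibronectin and laminin and activate other MMPs, read highest on KA/KA 2. Mmp10 read 8.19 on KA/KA 2, 5.65 on KA/KA 3 and 6.78 on WT 2, and 6.05 and 5.96 on KA/KA 1 and WT 1. It exceeded the array median on KA/KA 2 alone, and KA/KA 3 was below WT 2. Mmp3 read 8.29 on KA/KA 2, 7.16 on KA/KA 3 and 7.47 on WT 2, and 5.93 and 6.26 on KA/KA 1 and WT 1. KA/KA 2 was above WT 2 by 0.82. Their mean differences on the low-spike arrays were 0.14 ± 1.19 for Mmp10 and 0.26 ± 0.67 for Mmp3 (SE, n = 2 and 1), with limma adjusted p = 0.994 and 0.979. Without KA/KA 2 these are -1.13 and -0.30, which turns their direction.

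For Mmp14 and Mmp19 the low-spike arrays stood in the order of Mmp12, with KA/KA 2 highest and WT 2 lowest. Mmp14, the membrane-bound collagenase that also activates the precursor of Mmp2, read 11.87 on KA/KA 2, 10.23 on KA/KA 3 and 9.58 on WT 2, and 7.89 and 7.49 on KA/KA 1 and WT 1. Both KA/KA arrays were above WT 2, by 2.29 and 0.65. The mean difference was 1.47 ± 0.76 (SE, n = 2 and 1; limma adjusted p = 0.910). Of its 3 probe sets, another gave 2.43 and 0.33, while the dimmest gave 0.62 and -0.25. Mmp19, an MMP of wide substrate range, read 8.48, 6.45 and 5.72 on KA/KA 2, KA/KA 3 and WT 2, and 6.48 and 6.43 on KA/KA 1 and WT 1. Its signal stood out on KA/KA 2 alone, the other 4 being below their array medians. The mean difference was 1.74 ± 1.00 (SE, n = 2 and 1; limma adjusted p = 0.920). Its other probe set gave 2.74 for KA/KA 2 and 0.61 for KA/KA 3.

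Mmp2, the gelatinase of fibroblasts that cuts type IV collagen, was alike on the low-spike arrays of both labels. It read 11.61 on KA/KA 2, 10.69 on KA/KA 3 and 11.41 on WT 2, against 6.86 and 6.45 on KA/KA 1 and WT 1. The difference lay between the sets of arrays, which did not overlap, and WT 2 stood between the KA/KA arrays. The mean difference by genotype was -0.26 ± 0.49 on the low-spike arrays (SE, n = 2 and 1; limma adjusted p = 0.970), and both of its probe sets had this pattern.

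Among the inhibitors, Timp1 was the one that set KA/KA 2 apart. It read 12.29 on KA/KA 2, 8.61 on KA/KA 3 and 8.58 on WT 2, and 6.22 and 5.67 on KA/KA 1 and WT 1. KA/KA 2 was 13.6-fold above WT 2 in signal, while KA/KA 3 differed from WT 2 by 0.02. The mean difference of 1.87 ± 1.61 (SE, n = 2 and 1; limma adjusted p = 0.949) comes from KA/KA 2. Timp2, which both inhibits MMPs and takes part in the activation of Mmp2 by Mmp14, read 13.37, 13.08 and 13.21 on the low-spike arrays and 10.78 and 9.87 on KA/KA 1 and WT 1. These low-spike values lay within 0.29 of each other, and the mean difference was 0.02 ± 0.29 (SE, n = 2 and 1; limma adjusted p = 0.997), which becomes -0.37 under quantile normalisation.

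The 6 probe sets of Timp2 did not agree on KA/KA 2. Their differences from WT 2 ran from -0.26, in a probe set of linear signal 1.70 to 7.50, to 1.13. On KA/KA 3 all 6 were at or below WT 2, by up to 0.88. Timp3, which binds the matrix and also inhibits ADAM proteases, was the only member whose representative probe set did not read highest on KA/KA 2. It read 12.24 on KA/KA 2, 12.82 on KA/KA 3 and 13.04 on WT 2, against 8.75 and 7.77 on KA/KA 1 and WT 1. Both KA/KA arrays were below WT 2 in all 4 of its probe sets, by 0.17 to 0.80. The mean difference of the representative probe set was -0.51 ± 0.37 (SE, n = 2 and 1; limma adjusted p = 0.945). On the high-spike pair the sign was the opposite, with KA/KA 1 above WT 1 by 0.98.

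**Figure D2:**
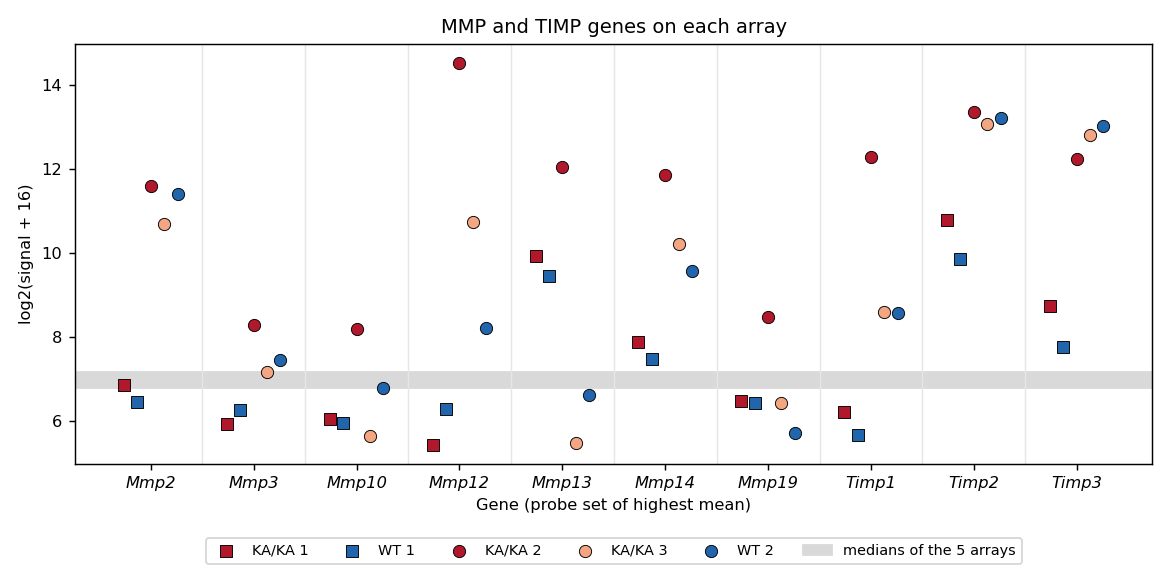
Signal of the 10 genes on each array as log2(signal + 16), squares for the high-spike pair and circles for the low-spike arrays, red and orange for KA/KA and blue for WT, with the range of the array medians in grey. KA/KA 2 is the highest point for 9 of the 10 genes, and Mmp2, Timp2 and Timp3 lie close together on all of the low-spike arrays.

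Among the low-spike arrays, the members counted together stood apart mainly on KA/KA 2. Their median difference between the sets of arrays, given below, was larger (2.88). Of the 10 representative probe sets, 9 read highest on that array, as did 19.3% of all probe sets, and 6 exceeded WT 2 by 1 unit or more, against 8.42% of all. None was lower than WT 2 by as much (9.02% of all). Their median difference from WT 2 was 1.85, against -0.03 over all probe sets. Over all 22 member probe sets it was 0.68, and 9 of the 22 passed 1 unit upward. On KA/KA 3 the same count was 1 of 10 (6.38% of all), with 2 lower by as much (6.34% of all) and a median of -0.17. KA/KA 2 also exceeded KA/KA 3, an array of the same label, by 1 unit or more in 7 of 10 (7.42% of all) and was lower by as much in none (7.68% of all), with a median of 1.84. Over all member probe sets that was 11 of 22, with a median of 1.03. Counted by gene, the distance between these arrays of 1 label was thus close to that of KA/KA 2 from WT 2. The members were chosen with earlier results of these data known, so the shares here and below describe them and are no test. Of the 12 other MMP and TIMP genes measured, 1 read highest on KA/KA 2. The median difference of those 12 between KA/KA 2 and WT 2 was 0.06. In other lists used below, KA/KA 2 was highest for 14 of 21 genes that act on MMPs. It was so for 8 of 14 ADAM and ADAMTS genes, 8 of 13 matrix substrates and 8 of 12 macrophage markers. For endothelial and smooth muscle markers the count was 1 of 11, and for neutrophil markers 0 of 11. Reading highest on KA/KA 2 was thus not particular to the members.

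By limma with a mean for each genotype in each set, none of the 22 member probe sets passed an adjusted p of 0.05 in the low-spike arrays, and neither did any other probe set (0% of 45037). At an unadjusted p under 0.05 there were 0 of 22, against 3.06% of all probe sets upward and 2.45% downward; the smallest member p was 0.053, for Mmp12. The fit has 1 residual degree of freedom, and a p that misses the threshold does not show that the genotypes are alike.

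On the high-spike pair no member differed between KA/KA 1 and WT 1 by 1 unit or more, up or down, while 5.62% of all probe sets did upward and 4.08% downward. Of the 10 genes, 8 were higher on KA/KA 1 (51.8% of all), with a median of 0.40 against 0.02 over all probe sets. There is 1 array of each label here and no test. The largest differences were those of Timp3 (0.98), Timp2 (0.91) and Mmp12 (-0.86). Of these, the other probe sets of Timp3 gave 0.04 to 0.42 and those of Timp2 -0.14 to 0.68. With a constant of 1 in place of 16, which widens differences of dim probe sets, 4 of the 22 member probe sets passed 1 unit. So did 9518 of all 45037 probe sets.

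**Figure D3:**
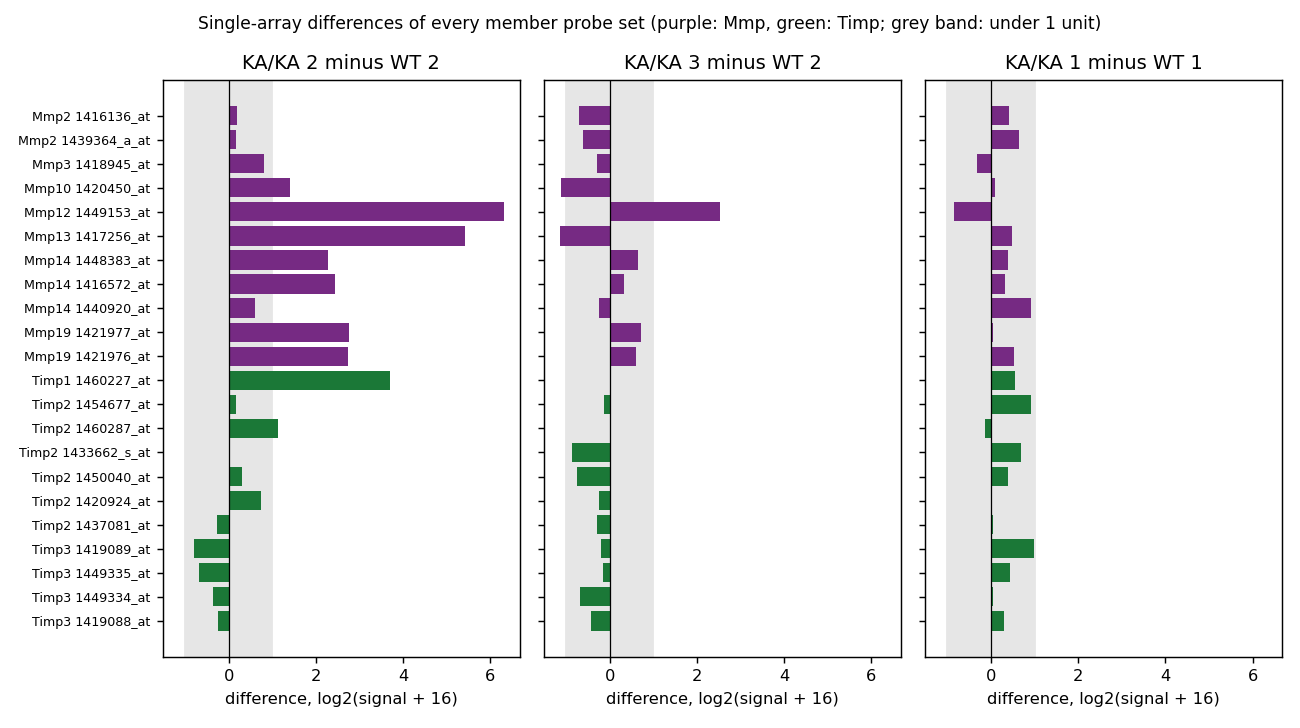
Differences of 1 array from another for each of the 22 probe sets, as log2(signal + 16), with Mmp genes in purple, Timp genes in green and differences under 1 unit inside the grey band. Large differences are seen for KA/KA 2 minus WT 2, up to 6.31 for Mmp12, whereas KA/KA 3 minus WT 2 passes 1 unit only for Mmp10, Mmp12 and Mmp13 and KA/KA 1 minus WT 1 for none.

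Between the sets of arrays, 7 of the 10 genes were higher on all of the low-spike arrays than on either array of the high-spike pair, with means at least 1 unit apart, as were 16.7% of all probe sets. They were Mmp12 (difference of means 5.29), Mmp2 (4.58), Timp3 (4.44), Timp1 (3.88), Timp2 (2.89), Mmp14 (2.87) and Mmp3 (1.54). None was lower throughout (11.3% of all probe sets). The same 7 were found without KA/KA 2, and Mmp12 then differed by 3.61 and Timp1 by 2.65. Mmp10 and Mmp19 overlapped between the sets. The other Mmp19 probe set did not overlap and was higher on the low-spike arrays by 2.19. Mmp13 differed by -1.65 and overlapped, and without KA/KA 2 it was lower on the low-spike arrays by 3.65 with no overlap. The median difference over the 10 genes was 2.88, against 0.07 over all probe sets. The sets were taken from the data and are not groups of the study, so no test is given.

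Over all arrays, with no regard to the sets, the mean of the KA/KA arrays was above that of WT for all 10 genes, as for 51.7% of all probe sets. Low-spike arrays are a larger share of KA/KA than of WT, so genes higher on them are raised in the KA/KA mean. With the set of arrays as a block, the difference was 0.03 for Mmp2, 0.007 for Mmp3 and 0.13 for Timp3. It was 2.16 for Mmp12 in that fit. The figures that follow are without the block. The difference was largest for Mmp12, at 2.98 ± 2.58 (SE, n = 3 and 2), followed by Timp1 at 1.91 ± 1.90 and Mmp14 at 1.46 ± 1.28. limma gave an adjusted p of 1 for every member and called 0 of 45037 probe sets in either direction. At an unadjusted p under 0.05 it found 0 of the 22 member probe sets, against 0.733% of all probe sets upward and 0.528% downward. Mmp19 was the only gene whose genotypes did not overlap (5.33% of all probe sets upward, 4.95% downward). The nearest values were 6.45 on KA/KA 3 and 6.43 on WT 1, both dim. In its other probe set the genotypes overlapped, at 5.07 on KA/KA 1 and 5.89 on WT 2. Without KA/KA 2 the difference was negative for Mmp2 (-0.15), Mmp3 (-0.32), Mmp10 (-0.52) and Mmp13 (-0.33), and it was 0.84 for Mmp12 and 0.29 for Timp1. With 3 against 2 arrays an exact permutation test can reach no p under 0.1, so none was run.

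Markers of other cells moved with these genes. Keratinocyte markers of basal and squamous epithelium (11 of 12 measured) had a median of 12.12 on KA/KA 2, and of 6.36 and 5.80 on KA/KA 3 and WT 2. Of the 11, 10 were at or above the array median on KA/KA 2 and 2 on each of the other 4 arrays. Their summed signal was 58569 on KA/KA 2 and between 542 and 1800 on those 4. Krt14 and Krt5, keratins of basal cells, read 13.90 and 12.85 on KA/KA 2, and 5.56 and 6.93 on WT 2. Sprr1b, a protein of the cornified layer, read 11.83 on KA/KA 2 and 4.25 and 4.22 on KA/KA 3 and WT 2, near 4, the lower end of the scale. Of the same list, Dsc3 read 6.23 on KA/KA 2 and 6.49 on KA/KA 3, and Lor 7.90 on KA/KA 2 and 7.78 on WT 2. KA/KA 2 was thus the array on which 10 of the 11 keratinocyte genes were highest. So were 9 of the 10 members, with Mmp10, Mmp13, Mmp19 and Timp1 among them. Mmp13 was also high on KA/KA 1 and WT 1 (9.95 and 9.46), where the keratinocyte medians were 5.55 and 5.51. The part of such cells in these values was not tested.

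Macrophage markers (12 of 12 measured) differed in the same order as Mmp12 and Mmp14 on the low-spike arrays. Their medians were 13.11 on KA/KA 2, 11.93 on KA/KA 3 and 9.91 on WT 2, with summed signals of 109070, 74415 and 26881. On KA/KA 1 and WT 1 the medians were 12.61 and 12.16 and the sums 69744 and 66299, while Mmp12 was dim on both. The scavenger receptor Msr1 read 11.55, 9.15 and 7.35 on the low-spike arrays and 7.00 and 7.01 on the pair. Marco, another receptor of the list, read 4.81 on KA/KA 2, 10.35 on KA/KA 3 and 4.64 on WT 2. Whether macrophage number accounts for any part of the Mmp12 values was not tested.

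Fibroblast and stromal markers (12 of 12 measured) had medians of 11.85, 11.31 and 12.13 on the low-spike arrays. On the high-spike pair the medians were 7.87 and 8.12. Mmp2, Timp2 and Timp3 were likewise higher on the low-spike arrays, and so were the endothelial and smooth muscle medians given below. Timp3 shared with those medians the order of the low-spike arrays, lowest on KA/KA 2 and highest on WT 2. The summed signal of the fibroblast and stromal markers was 74576, 31488 and 51339 against 8720 and 10626. Of the 12, 8 were higher on all of the low-spike arrays with means 1 unit or more apart (16.7% of all probe sets). Cxcl12 alone was lower by that rule (11.3% of all). Its signals of 4711 and 7220 made up most of the sums on the pair. Against WT 2, 3 of the 12 were higher by 1 unit or more on KA/KA 2 and 1 was lower, with 0 and 3 on KA/KA 3. The 3 were the collagen genes Col1a1 (2.52), Col3a1 (1.56) and Col1a2 (1.21), and the lower gene was Dcn (-1.85). Endothelial and smooth muscle markers (11 of 11 measured) were lower on KA/KA 2, with a median of 9.99 against 12.06 and 12.44, and their summed signals were 29638, 48749 and 62318. On the pair that median was 8.04 and 7.84, with sums of 3528 and 2261. Their part in the member values was not tested either. Neutrophil markers (11 of 12 measured) had summed signals of 32998, 72773 and 6378 on KA/KA 2, KA/KA 3 and WT 2. Their medians there were 7.14, 8.42 and 6.98. On KA/KA 1 and WT 1 the sums were 121860 and 185620 and the medians 13.30 and 13.54. S100a8 (16086, 37993 and 2272) and S100a9 (14352, 29866 and 1614) made up most of the low-spike sums. Of the 11, 5 exceeded WT 2 by 1 unit or more on both KA/KA arrays (2.96% of all probe sets). Ltf was below WT 2 on both (-0.55 and -1.53).

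**Figure D4:**
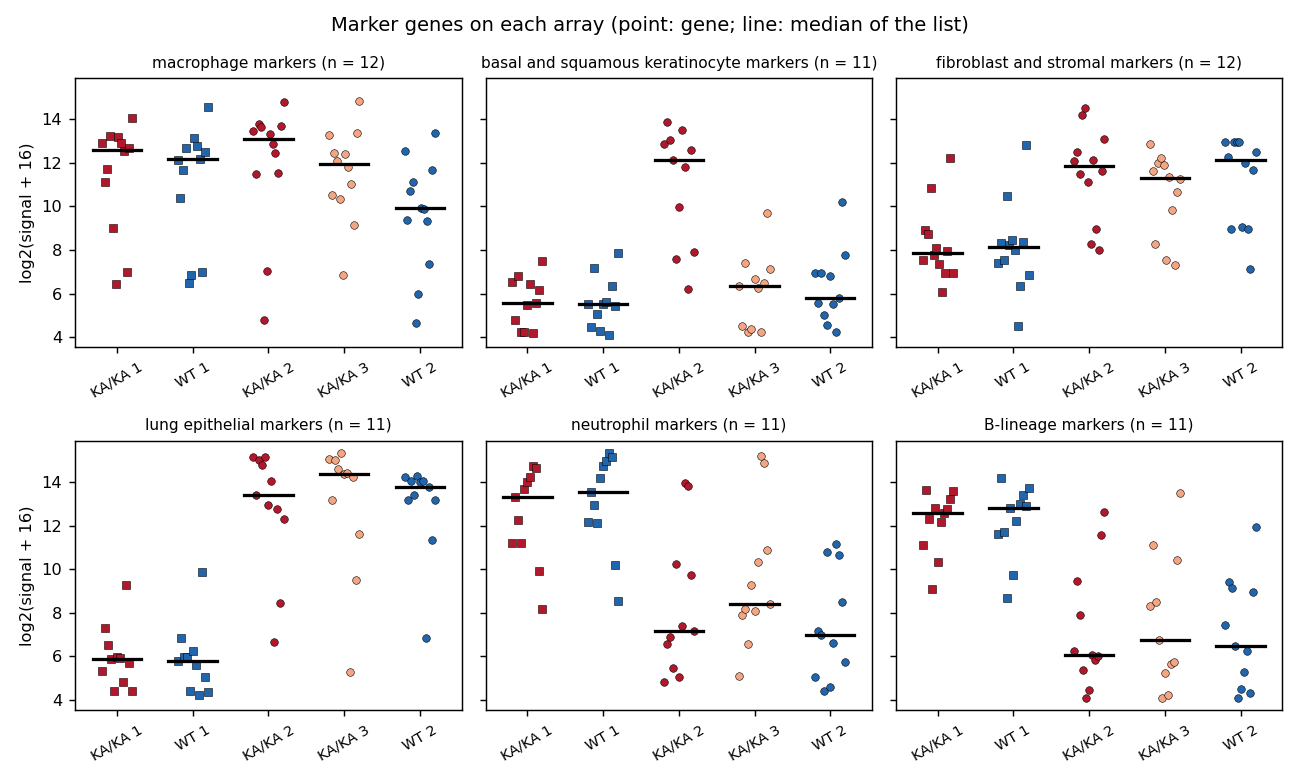
Marker genes of 6 cell types on each array as log2(signal + 16), with a point for each gene and a line at the median of the list. By the median, keratinocyte markers are high on KA/KA 2 alone (12.12) and macrophage markers are lowest on WT 2 (9.91). The median of B-lineage markers is high on KA/KA 1 and WT 1 alone, while single markers such as Ptprc are high on all arrays.

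Of the other MMP and TIMP genes, 12 of 17 were measured and none passed the limma tests. On KA/KA 2, 1 of them read highest (19.3% of all probe sets) and 1 was above WT 2 by 1 unit or more (8.42% of all). The latter was Mmp8, the collagenase stored in neutrophil granules, which read 9.72, 10.53 and 7.04 on KA/KA 2, KA/KA 3 and WT 2 and 10.66 and 11.40 on KA/KA 1 and WT 1. Mmp9, the gelatinase of neutrophils and macrophages, read 9.40, 10.04 and 8.99, and 10.85 and 11.16. For both genes KA/KA 3 and not KA/KA 2 was the highest low-spike array, and the high-spike pair was higher still. Timp4, the remaining inhibitor, read 9.19 on KA/KA 3, 6.21 on KA/KA 2 and 7.02 on WT 2. Within the chromosome 9 cluster, Mmp1a, Mmp1b, Mmp20 and Mmp7 stayed between 4.13 and 6.50 on every array, so these 4 neighbours were dim on all arrays, unlike Mmp8.

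**Figure D5:**
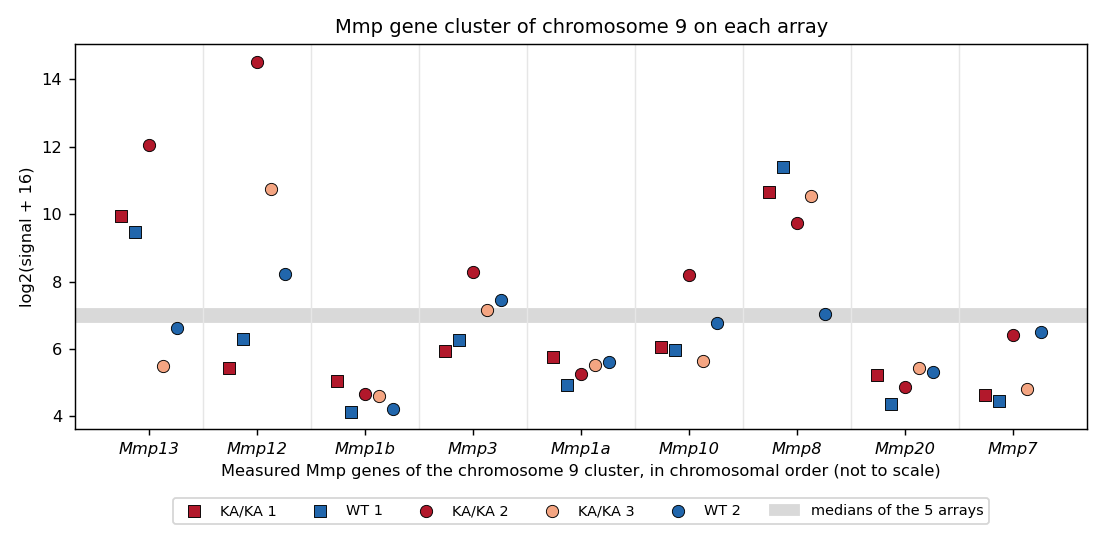
Signals of 9 measured Mmp genes of the chromosome 9 cluster in chromosomal order, as log2(signal + 16), with symbols for arrays as labelled and the range of array medians in grey. Mmp13, Mmp12, Mmp3 and Mmp10 are highest on KA/KA 2, Mmp8 is highest on WT 1, and Mmp1b, Mmp1a, Mmp20 and Mmp7 stay at or below 6.50.

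Genes that act on MMPs were counted over 21 of 22 measured. None passed the limma tests, while 9 were above WT 2 by 1 unit or more on KA/KA 2 (8.42% of all probe sets) and 3 were lower (9.02% of all). On KA/KA 3 the counts were 3 (6.38% of all) and 2 (6.34% of all). The same shares apply to the lists that follow. Both KA/KA arrays exceeded WT 2 by that much for Lcn2, a protein that binds Mmp9 (3.91 and 3.39), Serpinb2, an inhibitor of plasminogen activators (3.90 and 1.23), and Plg, the precursor of plasmin (1.56 and 1.46), whose signals were dim on every array. Reck, a membrane-bound MMP inhibitor, was lower on both (-2.50 and -1.06). Plau, the urokinase that makes plasmin, read 7.09 on KA/KA 2 and 4.37 and 4.40 on KA/KA 3 and WT 2.

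Of the ADAM and ADAMTS proteases, relatives of the MMPs, 14 of 15 were measured and none passed the limma tests. On KA/KA 2, 4 were above WT 2 by 1 unit or more and none was lower by as much; on KA/KA 3 there was 1 each way. Adam8, a protease of myeloid cells, was the 1 gene above WT 2 by that much on both (3.53 and 1.30). Adamts4, an aggrecanase, read 8.60 on KA/KA 2 and 4.95 and 5.25 on KA/KA 3 and WT 2. Of 13 of 15 matrix substrates measured, 5 were above WT 2 by 1 unit on KA/KA 2 and 1 was lower, with 1 and 3 on KA/KA 3. Fn1, which encodes fibronectin, differed by 1.59 and 0.20, Eln, for elastin, the substrate of Mmp12, by 1.71 and 0.91, and the proteoglycan gene Dcn by -1.85 and -1.05. Between the sets, 11 of the 13 substrates were higher on all of the low-spike arrays, with means 1 unit or more apart (16.7% of all probe sets).

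AP-1 genes and known inducers of MMP genes were measured for 15 of 15, and none passed the limma tests. Of these, 6 exceeded WT 2 by 1 unit or more on KA/KA 2, 6 on KA/KA 3 and 5 on both (2.96% of all probe sets), and none was lower by as much. Those on both were the AP-1 subunits Fos (1.12 and 1.35) and Junb (1.62 and 1.48) and the cytokines Il6 (3.56 and 1.88), Il1a (1.73 and 1.51) and Tnf (1.57 and 3.17). The cytokine Il1b differed by 0.70 and 2.76. Tnf was dim on KA/KA 2 and WT 2 (6.72 and 5.15), and Il6 on KA/KA 3 and WT 2 (6.67 and 4.79). The AP-1 subunit Fosl1 read 7.17 on KA/KA 2, 6.08 on KA/KA 3 and 5.55 on WT 2. The other AP-1 subunits stayed under 1 unit from WT 2 on both. They were Jun (-0.66 and 0.38), Fosb (0.08 and 0.11), Fosl2 (0.64 and -0.33) and Jund (0.28 and 0.51). The part of these genes in the member values was not tested.

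For each member, the genes of most similar pattern were those with the smallest Euclidean distance over the 5 arrays after each profile was centred on its mean. Mmp12 was nearest to Pigr, which carries IgA across epithelium (distance 1.68), the chemokine Ccl11 (1.69) and Arg1 (1.78). Mmp13 was nearest to Igk, of the immunoglobulin kappa locus (1.52), Cd163 (2.23) and the growth factor Igf1 (2.26). Arg1, an enzyme of arginine breakdown found in some macrophages, read 14.23 on KA/KA 2, 8.08 on KA/KA 3 and 6.98 on WT 2. Cd163, a scavenger receptor of macrophages, read 11.16, 6.87 and 6.61 on those arrays and 11.69 and 10.74 on KA/KA 1 and WT 1, so that it shared with Mmp13 the high values on the pair and on KA/KA 2. Timp1 was nearest to Sbsn (0.78), a secreted protein of stratified epithelium, and Mmp14 to Bhlhe40 (0.34), Pla1a (0.43) and the integrin Itgax (0.47). Mmp2 was nearest to Ap1m2, an adaptor subunit of epithelial cells (0.21), Timp2 to the endothelial gene Plvap (0.15) and Timp3 to the cell cycle inhibitor Cdkn2b (0.24). With 5 arrays, many genes have close profiles by the sets alone.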

How the data were processed

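The authors deposited 1 table of intensities, a signal for each of 45101 probe sets on each of 5 arrays. Per the submitters' processing notes MAS5 was used, with no version, and the series text speaks of a log2 transformation. The deposited intensities were linear, with a trimmed mean of 500.002 or 500.003 on each array (2% left out at each end), so log2(signal + 16) was computed from them. The table holds no detection calls, and depth has no counterpart on arrays. Of the probe sets, 64 controls were left out and 45037 tested without a filter on dim signals; 34945 of these had 1 gene symbol in the platform annotation, 932 several and 9160 none in that table. By the median signal, 7 of the 22 member probe sets fell below the filter tried as an alternative.

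Samples were grouped by their labels. Under R 4.3.3, limma 3.58.1 (lmFit, eBayes with trend, two-sided, Benjamini-Hochberg over all probe sets) fitted genotype over all arrays, and a mean for each genotype in each set of arrays, which were split at a poly-A control median of 10. The scripts were tested on simulated data. The members and gene lists were chosen with earlier results of these data known. All members are named; of other lists, genes past a test, or else at most 4 with the largest difference on the low-spike arrays in the same direction on both KA/KA arrays, and defining markers as a description. Plau, Adamts4, Fos, Fosl1, Junb, Fn1, the collagen genes, Timp4 and the chromosome 9 neighbours were chosen after their values were seen. So were the remaining AP-1 subunits, Dsc3, Lor, Ptprc, Blnk, S100a8, S100a9, Ltf and Cxcl12. The alternatives were constants of 1 and 64, quantile normalisation, median centring, a floor, a filter, 1 probe set a gene, shared probe sets left out, other variance models, blocks and each array left out. Sequences come from RefSeq promoters (GRCm38.p6).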

Additional observations from a re-analysis of the deposited data

Results flagged for a closer look

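For 2 members the arrays of the sets moved in opposite directions by genotype. Mmp12 was above WT 2 on KA/KA 2 (6.31) and KA/KA 3 (2.53) and below WT 1 on KA/KA 1 (-0.86), on the log2(signal + 16) scale. The difference between the sets was 5.28 ± 2.51 (SE, n = 2 and 1 against 1 and 1), with an adjusted p of 0.893 in limma. Timp3 was below WT 2 on KA/KA 2 (-0.80) and KA/KA 3 (-0.21) and above WT 1 on KA/KA 1 (0.98), a difference between the sets of -1.48 ± 0.56 (SE, same arrays; limma adjusted p = 0.893). Neither passed the test. Mmp12 was dim on the high-spike pair, where both signals were below the array median.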

How the results depend on the processing

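No alternative called a member probe set by a test in any comparison. Over all probe sets, 2 were called between genotypes with the replicate block, in which KA/KA 3 stood in a block of its own. The labels do not say that the numbers mark a shared source. Number 1 is the high-spike pair, and both arrays of number 2 are low-spike arrays, as is KA/KA 3. The correlation of deviations from the group means was 0.79 for number 1 and 0.516 for number 2. For KA/KA 3 with WT 2, of unlike numbers, it was 0.645, so these values do not separate the numbers from the sets. With that replicate block Mmp12 differed by 2.73 and Mmp13 by 2.96, without passing. The count of probe sets 1 unit apart on the high-spike pair, 4370, was 9518 with a constant of 1, 588 with 64, 2368 with a floor, 993 with the filter on dim probe sets and 1580 with 1 probe set a gene; member probe sets numbered 4 with a constant of 1. The count that separated the sets, 12600, was 8023 with the filter and 5690 with 1 probe set a gene, when 7 member probe sets counted in place of 16 because fewer are tested.

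With 1 array left out, the difference over all arrays ran from -1.69 to 3.27 for Mmp2, -0.34 to 0.87 for Mmp3, -0.52 to 0.75 for Mmp10, -0.33 to 2.96 for Mmp13, -0.80 to 2.54 for Timp2 and -1.77 to 3.50 for Timp3, so these have no stable direction. Mmp12, Mmp14, Mmp19 and Timp1 stayed above 0. Timp2 on the low-spike arrays turned to -0.37 under quantile normalisation. The causes were not tested. Dim signals limit Mmp3, Mmp10 and Mmp19.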
